A study of Homo sapiens with 6 samples.

Results

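The genes described here are those of the heterogeneous nuclear ribonucleoprotein (hnRNP) and serine/arginine-rich (SR) splicing factor families in SH-SY5Y cells with lasting depletion of TDP-43. They were chosen by symbol, with earlier results of these data known. The choice took every gene of the deposited table whose symbol starts with HNRNP, or is SRSF followed by a number. It left out 2 hnRNP A/B genes and symbols with a hyphen. This gave 39 of 26372 genes, 27 with HNRNP symbols and 12 with SRSF symbols. SH-SY5Y is a human neuroblastoma line with features of sympathetic neurons. The 3 knockdown libraries (labelled shT2) came from cells infected with lentivirus carrying a TDP-43 hairpin (shRNA), and the 3 control libraries (shNC3) from cells with a control shRNA. The labels give a single name for each arm, describe long-term selection with puromycin for the knockdown cells, and state neither a clone nor separate cultures. The p-values therefore reflect only how these libraries varied, which may be technical. Poly(A) RNA was sequenced with a directional kit, and levels are FPKM, fragment numbers divided by transcript length and by the size of the library.

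SR proteins carry RNA-recognition motifs and a tail rich in arginine-serine dipeptides, bind enhancer sequences in exons, and mostly favour inclusion of the exon they bind. hnRNP proteins coat nascent transcripts, often bind silencer sequences, and often favour exon skipping, though both families act in either direction depending on where they bind. TDP-43, itself an hnRNP-like protein encoded by TARDBP, binds UG-rich RNA. Many genes of both families limit their own output through alternative exons or introns that send the transcript to nonsense-mediated decay, and gene-level FPKM adds such transcripts to the productive ones and does not show splicing.

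Because TDP-43 is known to bind UG-rich RNA, repeats of TG were looked for in the family transcripts. In the longest coding transcript of each gene (GENCODE v29, GRCh38), 4 or more TG units in a row, TGTGTGTG on the transcript strand only, were found in 3 of 31 tested members with a coding transcript, all hnRNP genes, and in 0 of 12 SRSF genes. Of all 11812 tested genes with a coding transcript 22.2% held such a run. The 3 sites are shown because they are the members' only matches, with the TG run in capitals.
HNRNPA3: aaaTGTGTGTGTtgt
HNRNPC: aaaTGTGTGTGgta
HNRNPD: ttaTGTGTGTGTGctt
The HNRNPA3 run lies in the 3' UTR in exon 11 of 11, at chr2:177223854-177223862 on the plus strand. The HNRNPD run lies in the 3' UTR in exon 9 of 9, at chr4:82353317-82353326 on the minus strand. The HNRNPC run lies in the 5' UTR in exon 1 of 8 of the longest transcript, at chr14:21262813-21262820 on the minus strand, a stretch that shorter transcripts need not hold. A match of letters is a description and no binding site, and introns were not searched.

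Transcripts annotated as targets of nonsense-mediated decay were counted for the same genes. The number of annotated transcripts per gene was not matched, and such an annotation does not show self-control. All 12 SRSF genes have at least 1 transcript annotated as a target of nonsense-mediated decay, as do 11 of 19 tested hnRNP genes with a coding transcript, against 42.8% of all tested genes with a coding transcript. SRSF7 has 6 such transcripts and HNRNPU has 9. HNRNPA0, HNRNPA1L2 and HNRNPH2 are each annotated with 1 transcript and none of this kind.

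The targeted gene was checked first. TARDBP (chromosome 1, 11012344 to 11026420, plus strand) measured 21.9, 20.7 and 21 FPKM with the TDP-43 shRNA and 50.3, 50.3 and 47.7 FPKM with the control shRNA. The groups lay far apart, the knockdown at 0.428 times the control mean (log2 fold change -1.19, limma adjusted p = 6.69e-08; exact two-sided permutation p = 0.1, the lowest value possible with 3 libraries a group). The depth of the libraries, read from steps between low values, was 69.9%, 52.6% and 94.7% of the deepest library in the knockdown and 100%, 95.7% and 84.6% in the control, and absolute depth is unknown. Cell type markers also differed between the groups. Of 19 mesenchymal markers all had a mean of 1 FPKM or more, and their summed level was 814 to 838 FPKM in the knockdown against 4149 to 4208 in the control, with ANXA1 and CAV1 listed at 0 in every knockdown library. Of these 19 markers 17 were called lower, SNAI2 did not pass the test, and TWIST1 was called higher (294 ± 7.94 against 111 ± 3.27 FPKM, mean ± SD, n = 3 each). Of 15 noradrenergic markers 13 had such a mean, their sum was 1185 to 1310.2 FPKM in the knockdown against 1025 to 1033 in the control, and TH, an enzyme gene of catecholamine neurons, was listed at 0 in all 6 libraries, as was INSM1 in the controls. Of 9 Schwann and glial markers 4 had such a mean, their sum was 52.8 to 53.7 FPKM against 45.4 to 48.03, and FOXD3 was listed at 0 in all 6 libraries. The part of these differences in the results below was not tested, and in such bulk samples fewer cells of a type and less RNA per cell cannot be told apart.

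Both families were expressed at high levels, and on the deposited scale their summed levels overlapped between the groups. Of the 39 genes 33 averaged at least 1 FPKM and were tested, and 24 of these stood above the 90th percentile of all tested genes in mean FPKM. The summed FPKM of the HNRNP symbols (without the 2 genes left out, so not the whole family) was 1901 to 1941 in the knockdown libraries and 1907 to 1931 in the controls. That of the SRSF genes was 767 to 795 in the knockdown and 766 to 790.0 in the controls. Whole columns summed to 2.12e+06 to 2.45e+06 FPKM in the knockdown and 1.18e+06 to 1.23e+06 in the control. The overlap of the family sums therefore rests on the deposited scale. Values were compared as log2(FPKM + 1) by limma, with p-values adjusted by Benjamini-Hochberg over all 13434 tested genes, with an adjusted p under 0.05 counted as a call. Called members numbered 18 of 33 (54.5%), 10 higher and 8 lower in the knockdown, where 66.3% of all tested genes were called, 30.5% higher and 35.9% lower. The members' share was no higher than this background.

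**Figure D1:**
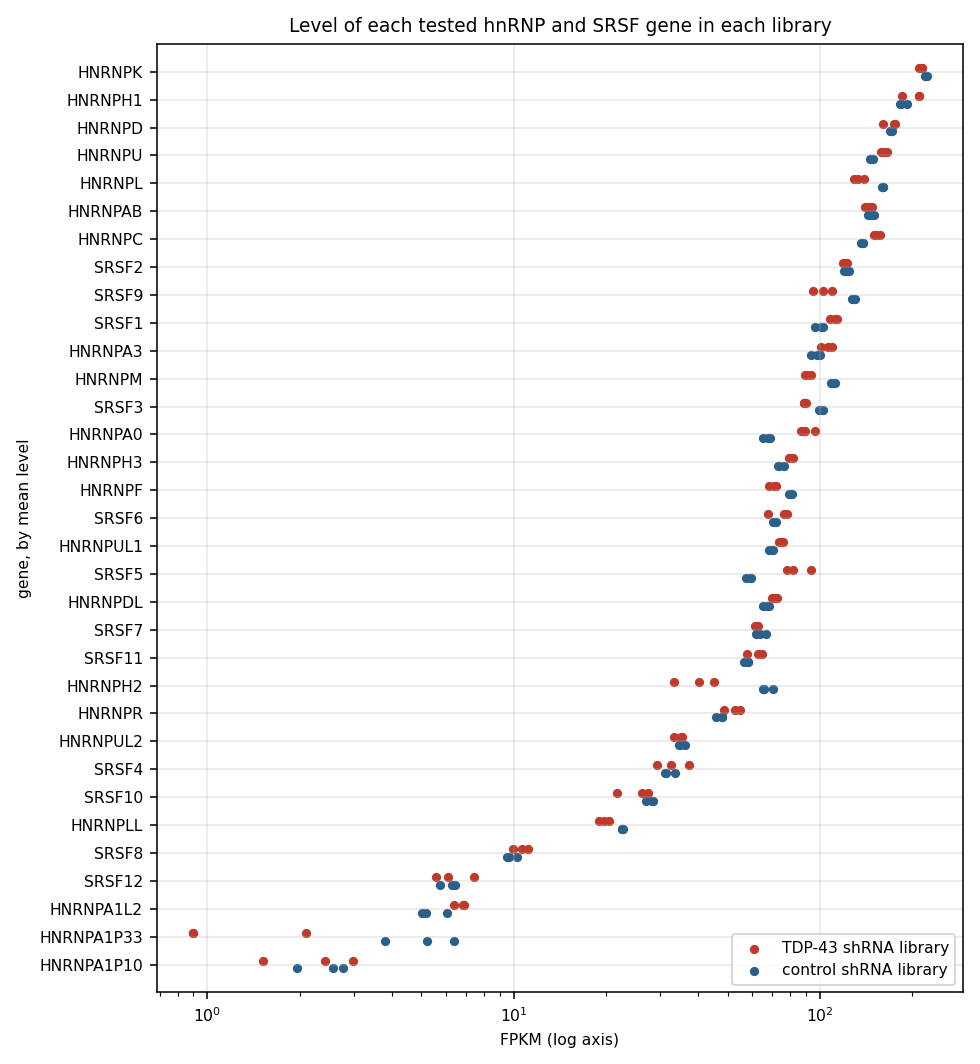
FPKM of each tested hnRNP and SRSF gene on a log axis, with each point 1 library (red, TDP-43 shRNA; blue, control shRNA). The groups do not overlap in 20 of 33 genes, beside 70.8% of all tested genes, mostly by narrow gaps; wider ones are seen for HNRNPA1P33, SRSF5, HNRNPA0 and HNRNPH2, the last at 33.4 to 45.1 against 65.1 to 70.3 FPKM.

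The sizes were small. The median absolute log2 fold change was 0.12 over the 33 members and 0.31 over all tested genes. That background was not matched to the members in level, and 24 members stood above its 90th percentile in mean FPKM. The 5 largest called changes were those of HNRNPA1P33, HNRNPH2, SRSF5, HNRNPA0 and SRSF9. On the log2(FPKM + 1) scale 2 members, HNRNPA1P33 and HNRNPH2, were called with at least 1.5-fold, against 25.4% of all tested genes. The pseudogene HNRNPA1P33 was the 1 member called with at least 2-fold, against 11.3%. Among the 21 tested HNRNP symbols 8 were called higher and 6 lower (median log2 fold change -0.0018), and among the 12 SRSF genes 2 higher and 2 lower (median 0.038), beside a median of -0.020 over all tested genes. Whether the families differ in their share of calls was not tested.

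The direction of small changes rests on the scaling between libraries. On the deposited scale and with median-of-ratios rescaling 10 members were called higher and 8 lower, and with columns rescaled to equal sums without 6 abundant small RNAs 6 were called higher and 8 lower. With quantile normalization the median log2 fold change of all tested genes moved from -0.020 to 0.091. Of all calls 58.8% were higher in place of 45.9%, with 5390 genes higher and 3769 lower. The members' median moved from 0.036 to 0.27, and 23 members were called higher and 2 (HNRNPA1P33 and HNRNPH2) lower. Columns were also rescaled to plain equal sums, in which the same 6 small RNAs held 63.8% to 82.0% of each sum. All genes then shifted by a median of -0.82. Of all 13434 tested genes 11689 were called lower, and so were all 33 members. Leaving equal sums aside, 13 of the 18 called members kept their direction in the other 4 scalings, which include the deposited one. These were the 10 higher ones and 3 lower ones (HNRNPA1P33, HNRNPH2 and HNRNPLL). Median-of-ratios rescaling moved genes by a median of only 0.0052, and quantile normalization moved the members upwards. The count is therefore little test of the 10 rises. HNRNPF, HNRNPL, HNRNPM, SRSF3 and SRSF9, lower as deposited, had log2 fold changes of 0.071, 0.040, 0.050, 0.12 and 0.023 with quantile normalization, of which that of SRSF3 was called. Directions below are those of the deposited scale.

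**Figure D2:**
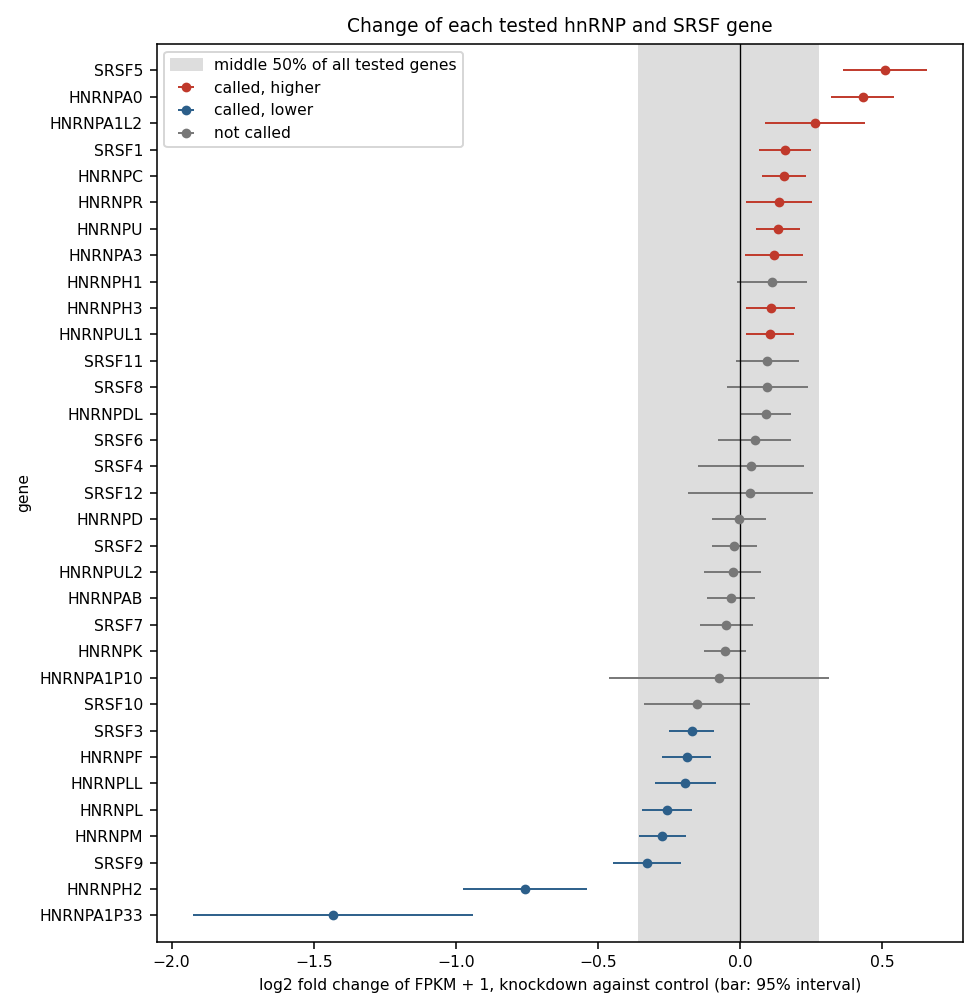
Log2 fold change of FPKM + 1 in the knockdown against the control for each tested gene on the deposited scale, with 95% intervals from limma and the middle 50% of all tested genes (-0.36 to 0.27) shaded. Most members lie inside the shaded band, with SRSF5 and HNRNPA0 beyond it on the right and HNRNPH2 and HNRNPA1P33 beyond it on the left; with columns rescaled to equal sums every gene lies below 0.

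Among the SR proteins SRSF5 had the largest change. SRSF5 (chromosome 14, 69726900 to 69772005, plus strand) encodes an SR protein with a pair of RNA-recognition motifs, related to SRSF4 and SRSF6. It measured 77.9, 93.2 and 81.5 FPKM with the TDP-43 shRNA, against 57.3, 59.5 and 59 FPKM in the controls. Every knockdown library was above every control, library 2 highest. The mean was 1.44 times the control (log2 fold change 0.51, standard error 0.064, limma adjusted p = 1.32e-04), and without any 1 library the log2 fold change was 0.44 to 0.56. It rose also with quantile normalization (0.79) and was at -0.38 with equal sums, above that scaling's median for all genes.

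SRSF9 went the other way. SRSF9 (chromosome 12, 120461668 to 120469793, minus strand), a short relative of SRSF1, stood at 109.7, 95.1 and 103 FPKM against 129, 130.4 and 127 FPKM in the controls. Its knockdown libraries all lay below the controls, and library 2 was lowest. It fell by 0.33 on the log2 scale (standard error 0.052, limma adjusted p = 5.76e-04), but was at 0.023 with quantile normalization. GATC, which overlaps SRSF9 on the opposite strand in GENCODE v29, measured 12.2 ± 0.48 against 9.38 ± 0.235 FPKM (mean ± SD, n = 3 each), and whether counting used strand is not given in the sources used here.

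SRSF1, the founding member, which binds purine-rich enhancers, and SRSF3, the smallest SR protein, which also acts in export and 3' end formation, made small moves in opposite directions. SRSF1 stood at 111 ± 3.00 against 99.6 ± 3.2 FPKM (mean ± SD, n = 3 each) and rose by 0.16 (limma adjusted p = 0.00768). SRSF3 stood at 90.1, 88.8 and 89.1 FPKM in the knockdown and 100.3, 102 and 99.5 FPKM in the control and fell by 0.17 (limma adjusted p = 0.0022), with 0.12 under quantile normalization. For both, the libraries of the 2 groups did not overlap on the deposited scale.

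The other 8 SRSF genes did not pass the test on the deposited scale. SRSF2, known as the speckle marker SC35, stood at 122, 119 and 119.6 FPKM in the knockdown and 122, 125 and 119.9 FPKM in the control, with a 95% interval of -0.10 to 0.061 for the log2 fold change. SRSF7, a relative of SRSF3 with a zinc knuckle, stood at 61.5, 62.7 and 62.2 against 66.9, 63.9 and 62 FPKM (interval -0.14 to 0.047). For both genes the libraries of the groups overlapped. SRSF4, with a long arginine-serine tail, stood at 32.7, 37.4 and 29.4 against 31.2, 31.5 and 33.7 FPKM (interval -0.15 to 0.22). SRSF6 stood at 78.1, 67.7 and 76.5 against 71.5, 72.1 and 70.4 FPKM (interval -0.077 to 0.18). In these related genes library 2 stood alone in the knockdown, highest for SRSF4 and lowest for SRSF6, and without it SRSF6 passed the test (log2 fold change 0.11, limma adjusted p = 0.00993).

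SRSF8, a close copy of SRSF2, was low, at 11.2, 9.94 and 10.6 FPKM against 9.65, 10.3 and 9.53 FPKM (interval -0.045 to 0.24). SRSF10, a splicing repressor when dephosphorylated after heat shock, stood at 26.2, 21.7 and 27.5 against 28.5, 28.2 and 27 FPKM (interval -0.34 to 0.035). Library 2 was again the lowest of SRSF10, and without library 3 of the knockdown SRSF10 passed the test as lower (-0.22, limma adjusted p = 0.0459). SRSF11 stood at 64.6, 57.9 and 62.8 against 58.1, 58.4 and 56.4 FPKM (interval -0.014 to 0.21) and passed as higher without library 2 of the knockdown (0.14, limma adjusted p = 0.00618). SRSF12, a relative of SRSF10 and the lowest SRSF gene, stood at 6.12, 5.57 and 7.42 against 6.42, 6.28 and 5.76 FPKM (interval -0.18 to 0.26). All 4 overlapped between the groups.

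The hnRNP F/H group, whose members bind runs of guanosines, held HNRNPH2, whose change was the largest of a protein-coding member on the deposited scale, though not with quantile normalization, where SRSF5 and HNRNPA0 moved more. HNRNPH2 (chromosome X, 101408295 to 101414133, plus strand) measured 40.2, 33.4 and 45.1 FPKM with the TDP-43 shRNA, against 65.7, 70.3 and 65.1 FPKM in the controls. Every knockdown library was well below every control, library 2 lowest. The mean was 0.59 times the control, and HNRNPH2 fell by 0.76 (standard error 0.095, limma adjusted p = 1.36e-04), with -0.85 to -0.64 when any 1 library was left out and -0.49 (adjusted p = 0.00197) with quantile normalization. The read-through gene RPL36A-HNRNPH2 overlaps it on the same strand and stood at 4.09, 10.2 and 1.01 FPKM in the knockdown against 1.69, 0.555 and 1.11 FPKM in the control (not called, limma adjusted p = 0.0654). Library 2, lowest for HNRNPH2, was highest for the read-through. The sum of both was 44.3, 43.5 and 46.1 FPKM in the knockdown and 67.4, 70.8 and 66.2 FPKM in the control. Its means were 44.6 ± 1.31 and 68.1 ± 2.41 FPKM (SD, n = 3 each), and the ratio of the means was 0.655, closer together among knockdown libraries than HNRNPH2 alone (SD 5.89).

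Its relatives changed less. HNRNPH1, the closest paralogue and the more abundant gene, stood at 210.1, 186 and 210.4 FPKM against 184, 193 and 183 FPKM, overlapping between groups (log2 fold change 0.11, interval -0.011 to 0.24). Without knockdown library 2 it passed as higher (0.17, limma adjusted p = 0.00215). HNRNPH3 stood at 80.1 ± 1.23 against 74.3 ± 1.76 FPKM (mean ± SD, n = 3 each) and rose by 0.11 (limma adjusted p = 0.0308), a call lost without knockdown library 1, control library 2 or control library 3 (highest adjusted p = 0.114). HNRNPF stood at 71, 68.1 and 71.8 FPKM against 79.4, 80.3 and 80.8 FPKM and fell by 0.19 (limma adjusted p = 0.0022), with 0.071 under quantile normalization.

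In the A/B group, which binds AU-rich and UAG-containing RNA, HNRNPA0 stood out. HNRNPA0 (chromosome 5, 137745651 to 137754376, minus strand), a binder of AU-rich elements, stood at 86.9, 96.5 and 89.3 FPKM in the knockdown and 67.6, 65.1 and 68.5 FPKM in the control. The groups did not overlap, and library 2 was highest. HNRNPA0 rose by 0.43 (standard error 0.048, 1.35 times the control mean, limma adjusted p = 6.12e-05), and by 0.73 with quantile normalization. HNRNPA3, a shuttling A/B protein, stood at 106 ± 4.23 against 97 ± 3.41 FPKM (mean ± SD, n = 3 each) and rose by 0.12 (limma adjusted p = 0.0409). That call was lost when any library but knockdown library 2 was left out (highest adjusted p = 0.146). HNRNPAB, also known as CBF-A, stood at 145, 148 and 140.4 FPKM against 150.3, 148 and 144 FPKM and overlapped (interval -0.12 to 0.054).

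The A/B group also has processed copies, whose reads can be shared with an abundant parent gene, so their levels are uncertain. HNRNPA1L2 (chromosome 13, 52642425 to 52643796, plus strand), an intronless coding copy, stood at 6.37, 6.89 and 6.81 FPKM against 6.04, 5.19 and 5.02 FPKM and rose by 0.26 (limma adjusted p = 0.015), a call lost without control library 2 or 3 (highest adjusted p = 0.0589). The pseudogene HNRNPA1P33 (chromosome 10, 46415853 to 46416413, plus strand) stood at 0.899, 2.1 and 0.900 FPKM against 5.2, 6.36 and 3.8 FPKM and fell by 1.43 (standard error 0.22, limma adjusted p = 4.05e-04). It lies within the noncoding gene LINC00842 on the same strand, which fell from 2.88 ± 0.166 to 1.62 ± 0.137 FPKM (limma adjusted p = 3.19e-04). The pseudogene HNRNPA1P10 stood at 2.41, 1.51 and 3.00 FPKM against 1.96, 2.56 and 2.78 FPKM with a wide interval (-0.46 to 0.31), so 1 of these copies rose, 1 fell and 1 did not pass the test.

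The AU-rich element binders HNRNPD (AUF1) and its relative HNRNPDL did not pass the test. HNRNPD stood at 176, 174 and 161 FPKM against 172, 170.4 and 169 FPKM, a log2 fold change of -0.0018 with an interval of -0.097 to 0.093. HNRNPDL stood at 71.4, 72.5 and 69.9 FPKM against 68.1, 67.2 and 65.2 FPKM. Its groups did not overlap, yet it missed the threshold (0.091, limma adjusted p = 0.0613). Of the genes with a TG run, HNRNPC and HNRNPA3 were called higher by small amounts and HNRNPD was not called.

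HNRNPL and HNRNPLL, which bind CA repeats, fell on the deposited scale. HNRNPL stood at 134, 129.7 and 139 FPKM against 161, 161 and 159.8 FPKM and fell by 0.26 (limma adjusted p = 3.64e-04), but was at 0.040 with quantile normalization. HNRNPLL, known for its role in CD45 splicing in T cells, stood at 20.4, 19 and 19.7 FPKM against 22.6, 22.8 and 22.5 FPKM and fell by 0.19 (limma adjusted p = 0.00617), with -0.043 (adjusted p = 0.386) under quantile normalization. HNRNPM, a binder of GU-rich RNA, stood at 89.4, 93.7 and 91 FPKM against 110.5, 109 and 112 FPKM and fell by 0.27 (limma adjusted p = 1.94e-04), with 0.050 under quantile normalization. The control libraries of all 3 genes were tight and above every knockdown library as deposited.

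HNRNPC, which binds uridine tracts and is known for keeping Alu-derived exons out of mRNA, stood at 153 ± 3.27 against 137 ± 1.1 FPKM (mean ± SD, n = 3 each) and rose by 0.16 (limma adjusted p = 0.00356). HNRNPK, a poly(C)-binding protein with KH domains and the highest member in mean FPKM, stood at 216, 216 and 210.1 FPKM against 223, 221 and 222 FPKM. Its groups did not overlap, with the knockdown lower, but the difference did not pass (-0.051, limma adjusted p = 0.189). HNRNPR, an RNA-binding relative of SYNCRIP, stood at 52 ± 3.02 against 47.2 ± 1.09 FPKM (mean ± SD, n = 3 each) and rose by 0.14 (limma adjusted p = 0.0397), a call lost when any library but knockdown library 2 was left out (highest adjusted p = 0.126).

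In the U group, named for scaffold attachment factor A (HNRNPU), HNRNPU stood at 165, 162 and 159 FPKM against 149, 146 and 147 FPKM and rose by 0.13 (limma adjusted p = 0.00757). The table lists HNRNPU-AS1, named as antisense to it, as a gene of its own, at 37, 34.9 and 38.2 FPKM against 27.3, 29 and 26.7 FPKM, a rise of 0.39 (limma adjusted p = 1.91e-04), and the RefSeq gene table gives that name as a synonym of HNRNPU. How reads were divided between the 2 entries is unknown, as neither annotation nor strand setting was given in the sources used here. HNRNPUL1 stood at 74.6 ± 1.26 against 69.3 ± 1.14 FPKM (mean ± SD, n = 3 each) and rose by 0.11 (limma adjusted p = 0.0317), a call lost without knockdown library 1 or any 1 control library (highest adjusted p = 0.128). It overlaps TGFB1 on the opposite strand, which stood at 5.96 ± 0.797 against 45.1 ± 1.28 FPKM. HNRNPUL2 stood at 33.5, 35.1 and 35.5 FPKM against 36.3, 35 and 34.7 FPKM, overlapping (interval -0.13 to 0.076). Its read-through with BSCL2, HNRNPUL2-BSCL2, stood at 7.74 ± 1.19 against 9.39 ± 1.01 FPKM and was not called (limma adjusted p = 0.0648).

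The 6 members under the minimum level were copies or retrogenes. HNRNPA3P1, HNRNPCL1, HNRNPCL2, HNRNPCL3 and HNRNPCL4, the last 4 coding copies of HNRNPC, were listed at 0 in all 6 libraries. HNRNPKP3 (chromosome 11, 43120762 to 43269393, minus strand), a transcribed pseudogene of HNRNPK, stood at 1.05, 0.966 and 0.893 FPKM in the knockdown and 0.0734, 0.153 and 0.0871 FPKM in the control. All knockdown values were above all controls, with a ratio of the means of 9.28 at levels around 1 FPKM or under. With a minimum mean of 0.1 FPKM it was called (log2 fold change 0.83, standard error 0.077, limma adjusted p = 3.59e-05), while its parent HNRNPK was not.

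The counts of calls among the rises depend on single libraries. Without control library 2 or control library 3, 5 members were called higher, and without knockdown library 1, 6, in place of 10, and 8 were called lower in each case. The share of all tested genes called fell too, from 66.3% to 59.6%, 61.0% and 62.7% without these libraries in turn. Without knockdown library 2, the shallowest, 13 members were called higher and 8 lower, and 68.1% of all tested genes were called. Library 2 was the knockdown library farthest from the other 2 in 18 of 33 members, library 1 in 8 and library 3 in 7. This count was not made over all tested genes, so whether it is particular to the members is unknown. The members varied by a median SD of 0.053 (knockdown) and 0.033 (control) in log2 units, against 0.093 and 0.061 over all tested genes, not matched for level.

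Ratios between related genes within a library do not depend on the scaling, apart from quantile normalization. For 10 pairs chosen by known relatedness, the ratio of FPKM was compared between groups with exact two-sided permutation tests, which cannot go below 0.1 here (0.143 after Benjamini-Hochberg adjustment over the 10 pairs). In 7 of the 10 pairs the ratios of the groups did not overlap, beside 70.8% of single tested genes. HNRNPH1 over HNRNPH2 was 5.23, 5.57 and 4.67 in the knockdown and 2.8, 2.75 and 2.81 in the control, a difference of 0.88 log2 units (standard error 0.075, exact permutation p = 0.1). The balance of this pair thus stood further towards HNRNPH1 in every knockdown library. The read-through RPL36A-HNRNPH2, highest in knockdown library 2, was left out of this ratio, and a ratio that includes it was not computed. SRSF1 over SRSF9 was 1.04, 1.14 and 1.09 in the knockdown and 0.782, 0.784 and 0.755 in the control (0.49, standard error 0.041, exact permutation p = 0.1). SRSF1 therefore had the higher FPKM of the pair in the knockdown libraries and SRSF9 in the controls.

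SRSF5 over SRSF6 was 0.996, 1.38 and 1.06 in the knockdown against 0.801, 0.826 and 0.839 in the control (0.47, standard error 0.14, exact permutation p = 0.1). Smaller shifts without overlap were found for SRSF10 over SRSF12 (-0.20), SRSF2 over SRSF8 (-0.13), SRSF3 over SRSF7 (-0.12) and HNRNPD over HNRNPDL (-0.095), each in log2 units with an exact permutation p of 0.1. HNRNPL over HNRNPLL (-0.057, exact permutation p = 0.2), HNRNPU over HNRNPUL1 (0.027, exact permutation p = 0.3) and SRSF4 over SRSF6 (-0.012, exact permutation p = 1) overlapped. HNRNPL and HNRNPLL thus fell with their ratio within the spread of the libraries.

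**Figure D3:**
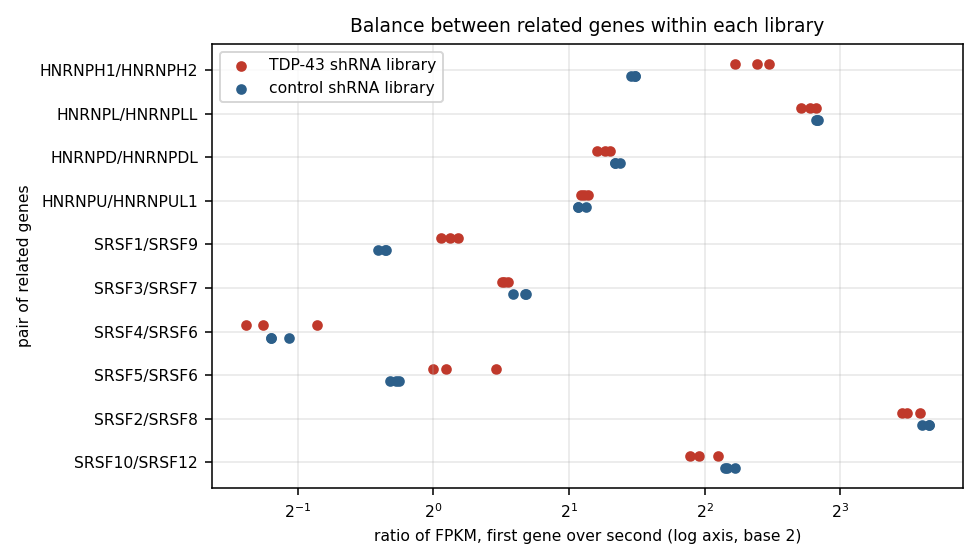
Ratio of FPKM between 2 related genes in each library, on a log axis of base 2 (red, TDP-43 shRNA; blue, control shRNA; each point 1 library). The ratios of HNRNPH1 to HNRNPH2, SRSF1 to SRSF9 and SRSF5 to SRSF6 are higher in all 3 knockdown libraries, and those of SRSF4 to SRSF6 overlap.

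Other splicing genes were counted over 5 lists. Of 15 hnRNP proteins that carry other symbols 6 were called higher and 5 lower (median log2 fold change 0.079), 73.3% in all against 66.3% of all tested genes. PTBP2, the neuronal polypyrimidine tract-binding protein, measured 21 ± 1.03 against 12.5 ± 0.683 FPKM (mean ± SD, n = 3 each) and rose by 0.71 (limma adjusted p = 1.01e-05), and its relative PTBP3 fell by 0.34. CIRBP, a cold-inducible RNA-binding protein, stood at 190.00 ± 3.48 against 126 ± 6.04 FPKM and rose by 0.59, and PCBP2, a poly(C)-binding relative of HNRNPK, rose by 0.33. With equal sums PTBP2, CIRBP and PCBP2 were at -0.14, -0.31 and -0.57, where all genes shifted by a median of -0.82. PTBP3 was negative under quantile normalization and equal sums too.

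Of 24 SR-related proteins, all tested, 12 were called higher and 1, TRA2A, lower (median 0.14), 54.2% in all against 66.3% of all tested genes (30.5% higher and 35.9% lower). With equal sums 1 was called higher and 23 lower, where 11689 of all 13434 tested genes were called lower. SRRM4, the activator of neuronal microexons, had the largest change, 4.96 ± 0.309 FPKM in the knockdown against 1.07 ± 0.0441 in the control (mean ± SD, n = 3 each; log2 fold change 1.52, limma adjusted p = 3.97e-07), and stayed higher with equal sums (0.92). LUC7L3 and LUC7L, partners of the U1 particle, rose by 0.65 and 0.42, and the speckle protein gene SRRM2 by 0.35, each negative with equal sums. TRA2A, a regulator that binds GAA-rich enhancers, fell from 79.7 ± 1.39 to 63.4 ± 3.55 FPKM, but was at -0.069 with quantile normalization and lost its call there.

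Of 15 genes for kinases, methyltransferases and importins that act on SR or hnRNP proteins, 14 were tested, 8 called higher and 1, DYRK1A, lower (median 0.14), 64.3% in all against 66.3% of all tested genes (30.5% higher and 35.9% lower). DYRK1A was at -0.017 with quantile normalization and lost its call there. All 4 CLK genes, whose kinases phosphorylate SR proteins in the nucleus, were called higher. With equal sums all 4 were lower, and 11689 of all 13434 tested genes were called lower. CLK2 measured 37.7 ± 2.01 against 26.8 ± 0.412 FPKM (mean ± SD, n = 3 each) and rose by 0.48, and CLK4, CLK3 and CLK1 rose by 0.39, 0.36 and 0.18. The cytoplasmic SR kinases SRPK1 and SRPK2 had log2 fold changes of 0.10 and -0.043 and were not called. Among importins, TNPO2 rose by 0.28, and TNPO3, which imports SR proteins, was not called (-0.094).

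Of 38 core spliceosome genes 36 were tested, 13 called higher and 10 lower (median 0.011), 63.9% in all against 66.3% of all tested genes. U2AF1, needed for splicing in every cell, was listed at 0 in 4 of the 6 libraries, so a listed 0 is no proof of a silent gene here. SF3A2 and SNRPA stood at 67.2 ± 6.21 and 38.3 ± 4.87 FPKM in the knockdown against 42.1 ± 0.672 and 28.1 ± 1.16 in the control, and SNRNP200, a helicase, rose by 0.37. SNRPG, a ring protein of the small nuclear particles, fell by 0.42. Of 14 nonsense-mediated decay genes 3 were called higher and 2 lower (median 0.078), 35.7% in all against 66.3% of all tested genes, among them UPF2 (20.3 ± 0.386 against 12.8 ± 0.474 FPKM) and CASC3 (rise of 0.44), and SMG9 and EIF4A3 (falls of 0.30 and 0.27). The named risen genes of both lists were negative with equal sums, where 11689 of all 13434 tested genes were called lower. EIF4A3 was at -0.023 and lost its call with quantile normalization.

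**Figure D4:**
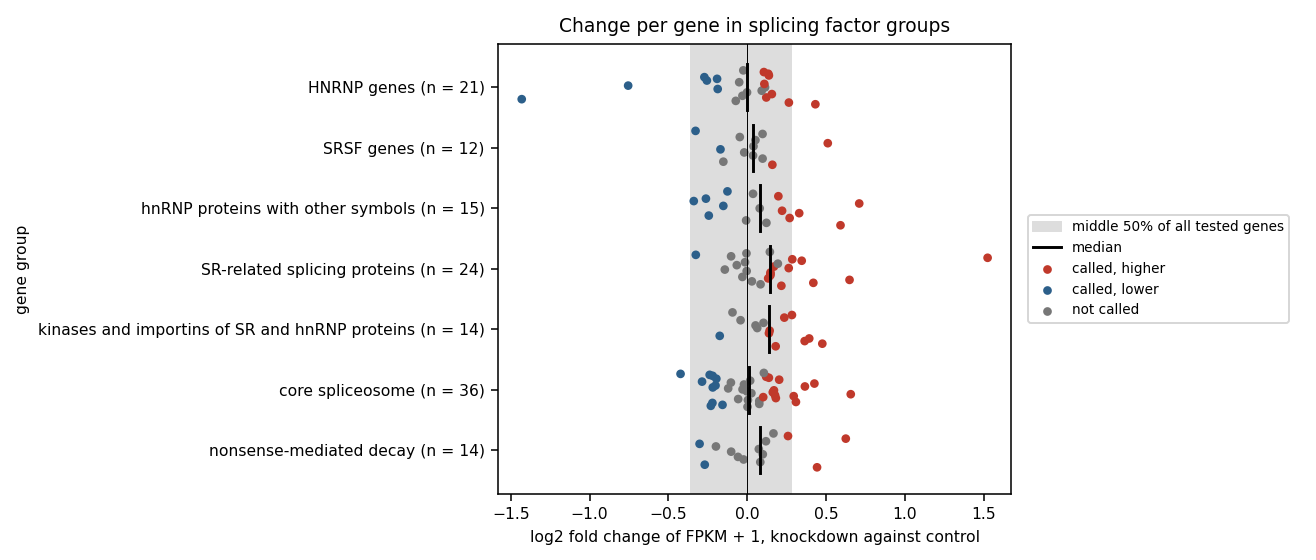
Log2 fold change of FPKM + 1, knockdown against control on the deposited scale, for each tested gene of the hnRNP and SRSF families and of 5 related gene groups (points; red called higher, blue called lower, grey not called; black line, median; shaded, middle 50% of all tested genes). The group medians lie between -0.0018 and 0.14, and with columns rescaled to equal sums nearly every point would lie below 0.

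**Figure D5:**
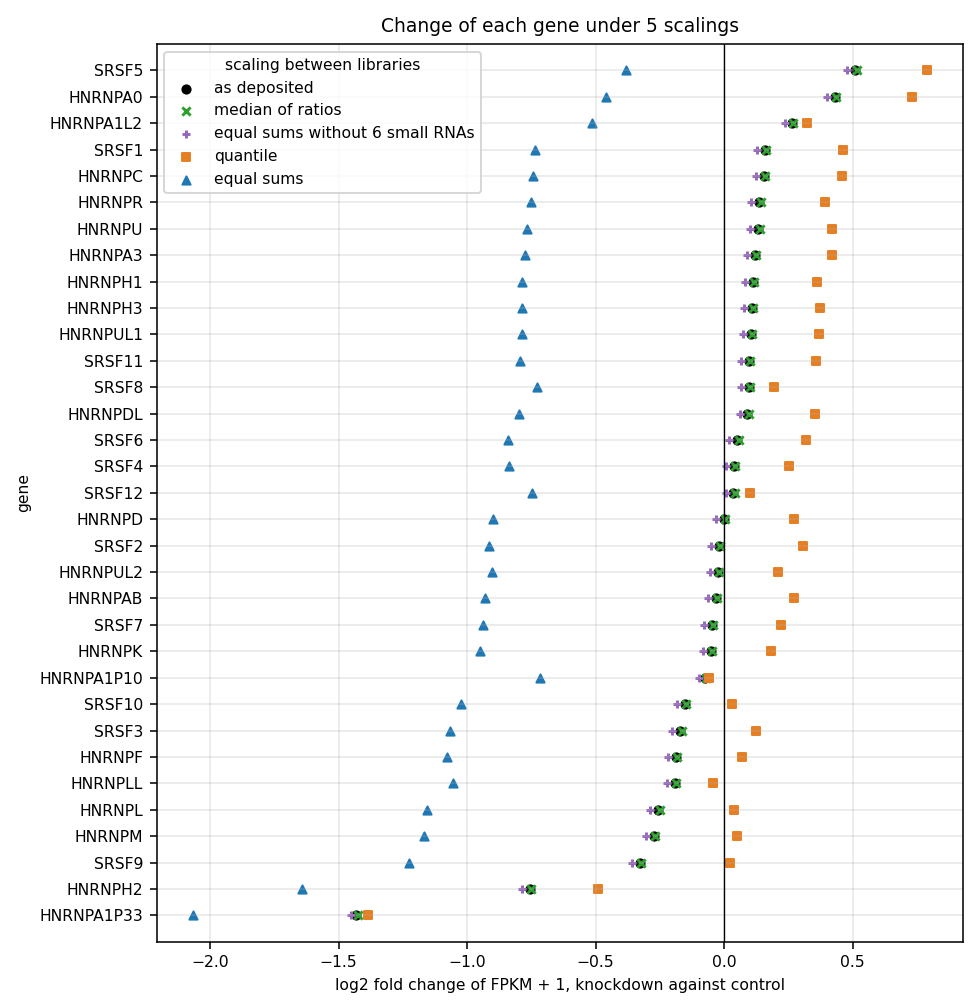
Log2 fold change of each tested hnRNP and SRSF gene under 5 scalings between libraries. Quantile normalization (orange squares) places most genes above 0 and equal sums (blue triangles) places all 33 below. HNRNPH2, HNRNPA1P33, HNRNPLL and HNRNPA1P10 are below 0 under each.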

How the data were processed

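The values are gene-level FPKM as deposited. The submitters' processing notes name hg38, Cuffdiff 2.2.1, TopHat2 2.1.0 and SAMtools, without their roles. Annotation and strand setting were not given in the sources used here. Groups and library numbers came from the sample titles. No 2 libraries shared more than 1 identical non-zero value. Relative depth was the modal ratio to control library 1 among values under 0.3 FPKM (tolerance 0.01 log2 units).

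Genes averaging at least 1 FPKM were tested as log2(FPKM + 1), which understates changes of low genes, with limma 3.58.1 (R 4.3.3, trend on, two-sided) and Benjamini-Hochberg adjustment over 13434 genes. The test was run on simulated data beforehand. Members and lists were chosen with earlier results of these data known. Named were all members, TARDBP and up to 4 called genes per list with the largest change; neighbouring genes, CLK1, SRPK1, SRPK2, TNPO3, TRA2A, DYRK1A, U2AF1, TWIST1 and SNAI2 were added after their values were seen. The 2 hnRNP A/B genes left out are not analysed here. Positions (1-based) are from GENCODE v29, GRCh38, where all 39 members matched by symbol. Alternatives were pseudocounts of 0.1 and 0.5, minimum means of 0.1 and 5 FPKM or none, 4 scalings, a replicate block, limma without trend or robust, and each library left out. Permutation tests ran in R, and other steps in Python 3.11.15 with numpy 2.4.6, pandas 2.3.3 and matplotlib 3.10.9.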

Additional observations from a re-analysis of the deposited data

How the results depend on the processing

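The fall of TARDBP kept its direction and call under every alternative run. With quantile normalization 23 members were called higher, 2 lower and 9 SRSF genes were called in all, and log2 fold changes turned positive for HNRNPAB (0.27), HNRNPD (0.27), HNRNPF (0.071), HNRNPK (0.18), HNRNPL (0.040), HNRNPM (0.050), HNRNPUL2 (0.21), SRSF10 (0.033), SRSF2 (0.31), SRSF3 (0.12), SRSF7 (0.22) and SRSF9 (0.023). Of all 13434 tested genes 5390 were called higher and 3769 lower under it. Calls higher and lower were 10 and 1 for hnRNP proteins with other symbols and 21 and 0 for SR-related proteins. They were 12 and 0 for kinases and importins, 21 and 1 for the core spliceosome and 9 and 1 for nonsense-mediated decay. With columns rescaled to equal sums 522 of all tested genes were called higher and 11689 lower, and 33 members (12 of them SRSF) were called, 0 higher and 33 lower. Calls higher and lower there were 0 and 14 for hnRNP proteins with other symbols, 1 and 23 for SR-related proteins, 0 and 14 for kinases and importins, 0 and 36 for the core spliceosome and 0 and 14 for nonsense-mediated decay. The genes that turned negative under it were HNRNPA0 (-0.46), HNRNPA1L2 (-0.51), HNRNPA3 (-0.77), HNRNPC (-0.74), HNRNPDL (-0.80), HNRNPH1 (-0.79), HNRNPH3 (-0.78), HNRNPR (-0.75), HNRNPU (-0.76), HNRNPUL1 (-0.79), SRSF1 (-0.74), SRSF11 (-0.79), SRSF12 (-0.75), SRSF4 (-0.84), SRSF5 (-0.38), SRSF6 (-0.84) and SRSF8 (-0.73). With median-of-ratios rescaling only HNRNPD changed sign (0.0038). The members called higher numbered 6 with equal sums without the 6 small RNAs, 6 with the replicate block and 6 without limma's trend. Of all tested genes 66.5%, 63.7% and 65.4% were called under these settings in turn. Under each the calls of HNRNPA3, HNRNPH3, HNRNPR and HNRNPUL1 were lost. HNRNPR also lost its call with no filter on level (limma adjusted p = 0.0502). Same-numbered libraries did not deviate together (correlations -0.018, -0.18 and -0.091). Deviations from a mean of 3 libraries sum to 0 in each group, so these correlations cannot settle whether the numbers mark pairs. With each library left out, 59.4% to 68.1% of all tested genes were called, 5 to 13 members were called higher and 9 to 15 HNRNP genes were called. Sign changes were then confined to HNRNPA1P10 (-0.22 to 0.11), HNRNPD (-0.024 to 0.037), SRSF4 (-0.048 to 0.12), SRSF12 (-0.063 to 0.11), none of them called, and the ratio of SRSF4 to SRSF6 (-0.17 to 0.097). The cause of these dependences was not tested. Absolute depth is unknown, which limits what can be said of HNRNPKP3 and other genes near 1 FPKM.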
